A study of Solanum lycopersicum with 12 samples.

Results

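The salt-sensitive tomato genotype ZS-5 was compared with itself at a later and an earlier time of salt stress, 6 hr against 2 hr. The comparison uses the arrays titled for ZS-5 at these times, 4 of the 12 arrays of the series: 2 arrays at 2 hr and 2 at 6 hr. On every array, root RNA of a salt-treated seedling was hybridised together with root RNA of a control plant, in 2 colours, and the dyes were exchanged between the arrays of a time. The other 8 arrays hold ZS-5 at 30 min and the salt-tolerant genotype LA2711 at 30 min, 2 hr and 6 hr. No label gives the salt dose, the age of the seedlings or the number of plants behind an RNA. The control RNA is named only as that of a control plant, so whether the 2 hr and 6 hr arrays share control plants is unknown. The array carries clones from subtracted libraries, which enrich for transcripts that differ under salt, so shares of clones are not shares of root genes.

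Salt stress reaches a root first as an osmotic load and then, as sodium accumulates, as an ionic one. Roots respond with compatible solutes and amino acid derivatives such as GABA, with aquaporins and potassium channels that reset water and ion balance, with enzymes that remove peroxide, and with the hormones ethylene, jasmonate and abscisic acid. Many early transcripts are transient and later ones are sustained, which is why a comparison between hours of treatment is made within a genotype.

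The value of a clone is the log2 ratio of treated and control RNA. A clone is a set of 3 adjacent spots, averaged. The 2 hr and 6 hr arrays run the same way: with treated RNA in Cy5, inverting the deposited ratio gave values rounded to 3 decimals at 100% of spots on both arrays, and with treated RNA in Cy3 the uninverted ratio was so rounded at 100% of spots. The sources used here do not say which RNA was divided by which. A positive value can therefore mean more or less transcript after salt, and only the side and the distance from 0 are described. A difference is the 6 hr minus the 2 hr log2 ratio, taken between arrays with the treated RNA in the same dye, so each clone has 2 differences. A dye-swap pair is 1 replicate, hence ZS-5 alone allows no test, and the SD of the 2 differences covers array and dye error only. A clone is called when both differences are at least 2-fold (1 on the log2 scale) with the same sign.

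The arrays of 6 hr had lower centres and wider spreads than those of 2 hr. Before centring, the array medians were 0.16 (treated RNA in Cy5) and -0.15 (Cy3) at 2 hr and -0.58 and -1.13 at 6 hr. The median absolute deviation was 1.06 and 1.07 at 2 hr and 2.13 and 2.07 at 6 hr. From 2 hr to 6 hr the array median fell by 0.86 on average, by 0.74 on the Cy5 pair and by 0.98 on the Cy3 pair. Subtracting each array's median adds these amounts back to the difference of every clone. Values below are centred unless said otherwise. Without centring the mean difference of a clone is lower by this average shift, which decides many calls, so uncentred counts or values are given for each gene group. In LA2711 the median absolute deviation went from 0.94 and 0.91 at 2 hr to 1.85 and 1.81 at 6 hr.

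Most clones called between 2 hr and 6 hr in ZS-5 lay further from 0 at 6 hr, on the side they already held, unless the arrays were scaled to the same spread. Of 3018 clones measured on all 12 arrays, 1076 (35.7%) were called, 707 positive (23.4%) and 369 negative (12.2%). Of these, 940 lay further from 0 at 6 hr than at 2 hr on the same side, 28 lay nearer to 0, and 108 lay on the other side of 0. Without centring 1384 (45.9%) were called, only 211 of them positive (6.99%) and 1173 negative (38.9%). Centring raises both differences of every clone, by amounts too small to turn a call to the other side. Negative calls with centring and positive calls without it therefore hold both ways by construction. The 580 calls that held (211 positive and 369 negative) and the 0 calls on opposite sides are thus no check of the calls. Uncentred, 1141 of the called clones lay further from 0, 33 nearer and 210 on the other side. Both dye orientations gave the same picture: the differences of the 2 pairs correlated with r = 0.96 across the 3018 clones, which share arrays and are not independent, and 0 clones passed 2-fold with opposite signs. The SD of the 2 differences had a median of 0.14 and a 95th percentile of 0.46.

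Clones past 2-fold on both arrays of a time illustrate the same shift. On the positive side there were 585 at 2 hr and 1100 at 6 hr, and 556 of the 585 stayed past 2-fold on that side. Among the 849 negative clones of 2 hr, 825 stayed, and at 6 hr there were 1125. Newly past 2-fold at 6 hr were 541 positive and 298 negative clones. Lost from the 2-fold class were 27 positive and 21 negative ones, and 5 clones were past 2-fold on opposite sides at the 2 times. Without centring the positive clones went from 548 to 699 and the negative ones from 813 to 1377. Newly past 2-fold were then 263 positive and 571 negative clones, and 110 positive and 9 negative ones were lost. The log2 ratios of the 2 times correlated with r = 0.91 across clones, and the slope of 6 hr on 2 hr was 1.32. When every array was scaled to the same median absolute deviation, which removes any growth of the whole response, 434 clones were called, of which 18 lay further from 0, 374 nearer and 42 on the other side.

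**Figure D1:**
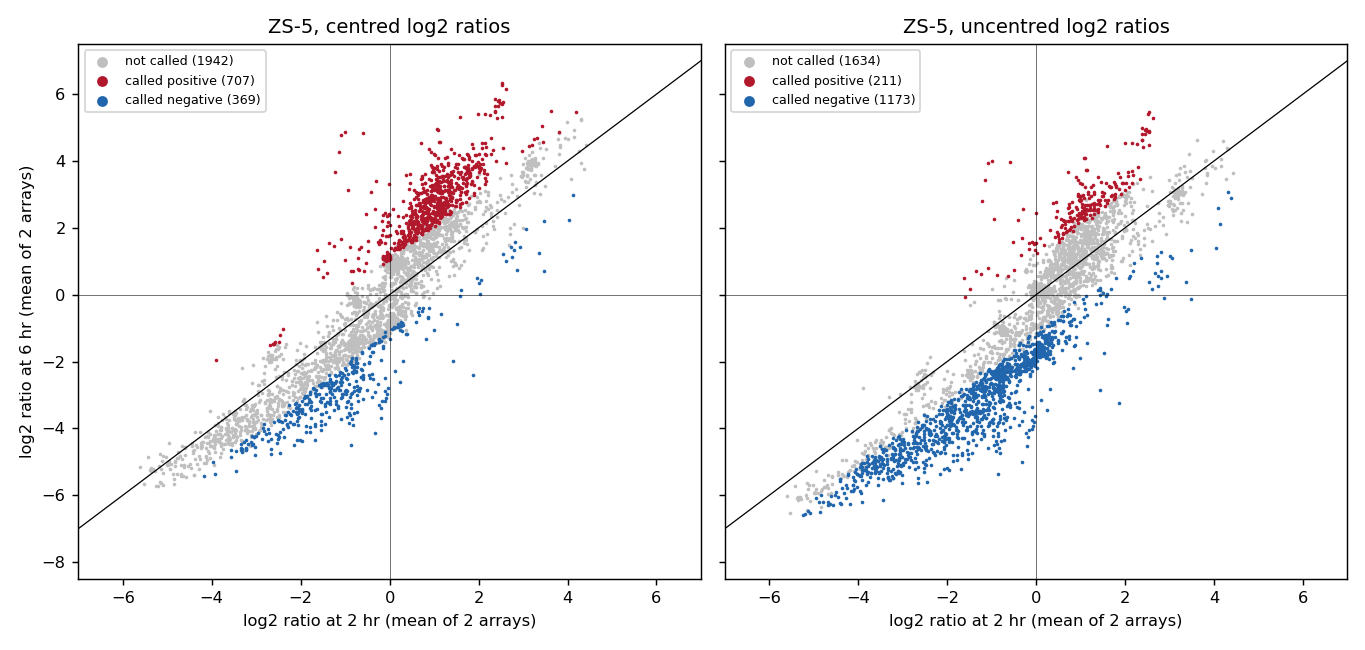
Mean log2 ratio of each of 3018 clones in ZS-5 at 2 hr (x axis) and 6 hr (y axis), with centring on the left and without on the right; the diagonal marks equal ratios. Called clones are coloured, and their split moves from 707 positive and 369 negative with centring to 211 and 1173 without.

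A platform annotation names 79 of the clones, for 38 genes, and RefSeq's table holds the gene ID of 37 of these genes. All 79 were measured on the 4 ZS-5 arrays and 77, of 36 genes, on all 12. Of the 77, 16 were called positive and 12 negative, 36.4% in all, near the 35.7% of all clones. Their median difference was -0.15, against 0.09 for all 3018. Uncentred, 5 were called positive and 35 negative. The 28 called clones had all 3 spots measured on each of the 4 arrays. Without centring the 12 negative calls hold by construction. Of the positive calls 5 held, those of GAD2, MT4, SAM3 (spots 8152 to 8154), LOC778302 (spots 4768 to 4770) and LOC543878 (spots 9973 to 9975).

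The difference between times can be tested only over both genotypes, with limma on the 6 condition means, genotype and time as factors and 2 residual degrees of freedom. In that fit a constant offset between genotypes is removed, and a time course that differs between them counts as spread. With limma, 1308 of 3018 clones (43.3%) had an adjusted p under 0.05, 728 positive (24.1%) and 580 negative (19.2%), and 1619 an unadjusted p under 0.05. Without centring the count was 1415 (46.9%), 286 positive (9.48%) and 1129 negative (37.4%), and 866 clones were called on the same side both ways. Among the 1076 clones called in ZS-5, 946 were also called by limma on the same side. The fit contains the same ZS-5 arrays, so clones picked for a large ZS-5 difference are favoured in it. Passing limma, here and below, is therefore no separate support for a ZS-5 call. The limma count was 0 of 3018 after quantile normalisation and after scaling to equal median absolute deviation, with 356 and 322 clones at an unadjusted p under 0.05.

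Among genes of amino acid metabolism, GAD2 had the largest difference of any named clone in ZS-5. GAD2 encodes a glutamate decarboxylase, the enzyme that makes GABA from glutamate. Its log2 ratios were -0.21 (Cy5) and -0.45 (Cy3) at 2 hr and 2.73 and 2.37 at 6 hr. The difference was 2.88 ± 0.09 (SD, n = 2 matched pairs), or 2.02 uncentred, and in LA2711 it was 2.09 ± 0.17. At 30 min GAD2 had stood at 2.88 and 3.12 in ZS-5, while the 2 hr values lay just below 0. If the 30 min arrays run the same way, GAD2 was then on the positive side, as at 6 hr. Over both genotypes limma gave 2.49 ± 0.69 (SE, adjusted p = 0.0236), and 0.083 as the adjusted p without centring.

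The other clones of this group moved less. The list of nitrogen genes has 6 clones of 5 genes, of which 1 was called positive and 0 negative, with a median of 0.26, against 23.4% and 12.2% of all clones and their median of 0.09. GS2 and gts1, which encode glutamine synthetases, the enzymes that fix ammonium into glutamine, lay at 3.07 and 3.24 (the GS2 clones) and 0.73 (gts1) at 2 hr, and differed by 0.16, 0.36 and 0.42. In LA2711 the same clones differed by 1.22, 1.15 and 1.05. AADC1B, an aromatic amino acid decarboxylase, went from -3.92 to -4.70, and the amino acid permease gene AAP2 from -1.99 to -2.61. Uncentred, these negative differences were past 2-fold on both pairs, at -1.64 for AADC1B and -1.48 for AAP2. At equal median absolute deviation both were positive, at 1.34 and 0.58. After quantile normalisation AADC1B stayed negative (-0.16) and AAP2 turned (0.23). By limma 1 of the 6 clones (GAD2) passed on the positive side with centring (24.1% of all clones). Without centring 2 passed on the negative side, AADC1B and AAP2 (37.4% of all clones).

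The S-adenosylmethionine synthetase gene SAM3 was called positive in 4 of its 5 clones, against 23.4% of all clones. These 4 clones had positive mean ratios at both times. S-adenosylmethionine is the methyl donor of the cell and the precursor of ethylene and polyamines. SAM3 (spots 4396 to 4398) had ratios of 0.78 and 1.33 at 2 hr and 3.02 and 3.26 at 6 hr. SAM3 (spots 8152 to 8154) had 0.79 and 1.34, then 2.85 and 3.34. SAM3 (spots 3181 to 3183) had 0.88 and 0.94, then 2.999 and 2.58. The differences of these clones were 2.09 ± 0.22, 2.03 ± 0.04 and 1.88 ± 0.34 (SD, n = 2 matched pairs). The clone of spots 286 to 288 differed by 1.23 and that of spots 5650 to 5652 by 0.41, from -0.18 to 0.23. The 4 called clones passed in the limma fit, which contains the same ZS-5 arrays, for example SAM3 (spots 8152 to 8154) at 2.00 ± 0.31 (SE, limma adjusted p = 0.00294). Uncentred differences ran from -0.45 to 1.23, 1 clone was called positive in ZS-5 (6.99% of all clones), and 3 passed by limma.

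With and without centring, all 4 clones of ethylene genes had negative differences, and 1 was called with centring. ACS7, an aminocyclopropane carboxylate synthase that forms the ethylene precursor, had ratios of -0.75 and -0.43 at 2 hr and -2.53 and -2.37 at 6 hr. Its mean difference was -1.86 ± 0.12 (SD, n = 2 matched pairs), and -0.57 with the arrays scaled to equal median absolute deviation. In LA2711 the ACS7 difference was -1.36, and limma over both genotypes gave -1.61 ± 0.29 (SE, adjusted p = 0.00499). The ethylene response factor gene ERF3 went from -2.18 to -2.59. Both clones of JERF1, another factor of that family, were positive at both times and nearer to 0 at 6 hr, from 1.49 to 0.90 and from 1.42 to 1.002. The ERF3 difference of -0.40 turned positive after quantile normalisation (0.37) and at equal median absolute deviation (0.76). Those of ACS7 and JERF1 stayed negative in both. Of the 4 ethylene clones, 0 were called positive and 1 negative (12.2% of all clones), and all 4 were called negative without centring (38.9% of all clones). By limma 1 of 4 passed with centring and 4 without it, all negative (19.2% and 37.4% of all clones).

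Of the oxylipin enzymes, DES was called and AOS was not. DES encodes divinyl ether synthase, which converts fatty acid hydroperoxides to divinyl ethers, while AOS, allene oxide synthase, directs them to jasmonate. DES had ratios of 1.69 and 1.35 at 2 hr and -0.45 and -1.31 at 6 hr, and so crossed 0 on both dye pairs, by -2.40 ± 0.37 (SD, n = 2 matched pairs). The uncentred difference was -3.25. Its 30 min ratio was 2.32, and the LA2711 difference was -2.21. Limma over both genotypes gave -2.30 ± 0.48 (SE, adjusted p = 0.00811). The 7 AOS clones differed by -0.61 to 0.50, and none was called in ZS-5. They stood at very different ratios, from -4.92 to 3.08 at 2 hr and from -5.07 to 3.58 at 6 hr, so that the gap between clones of this gene was many times the difference between the times. Uncentred, 4 AOS clones were called negative in ZS-5, as were 38.9% of all clones. By limma 0 of the 7 passed with centring and 5 without it, on the negative side (19.2% and 37.4% of all clones).

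Clones of NAC1, a transcription factor of the plant NAC family, fell into different courses. The 7 clones with ratios between -4.13 and -3.71 at 2 hr lay between -5.36 and -4.47 at 6 hr. Of these, NAC1 (spots 3064 to 3066) had ratios of -4.01 and -3.83 at 2 hr and -5.38 and -5.34 at 6 hr, with a mean difference of -1.44 ± 0.10 (SD, n = 2 matched pairs), and that of spots 4315 to 4317 differed by -1.06. The other 5 differed by -1.02 to -0.66 and were not called with centring, while all 7 were called negative without it. At 30 min these 7 clones had been positive in ZS-5, at 0.89 to 1.57, if the 30 min arrays run the same way.

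The remaining NAC1 clones went their own ways. NAC1 (spots 4192 to 4194) was positive at 2 hr, at 0.81 and 1.17, and negative at 6 hr, at -0.86 and -1.23, a difference of -2.04 ± 0.52 (SD, n = 2 matched pairs). NAC1 (spots 3769 to 3771) went from 0.87 and 0.38 to 2.08 and 1.70 and was called positive at 1.26. In all, 1 of 9 clones was called positive and 3 negative with centring (23.4% and 12.2% of all clones). Without centring these counts were 0 and 8 (6.99% and 38.9% of all clones). By limma 8 of 9 passed on the negative side with and without centring, against 19.2% and 37.4% of all clones. The exception was NAC1 (spots 3769 to 3771). At equal median absolute deviation the 7 strongly negative clones had positive ZS-5 differences, from 1.04 to 1.46, and limma called 0 of all clones. In LA2711 the 7 strongly negative clones differed by -2.37 to -1.66, more than in ZS-5 in each case. VAHOX1, a homeodomain-leucine zipper factor, differed by -1.08 ± 0.12 and missed the call because its Cy5 pair stopped at -0.997, and it passed by limma (adjusted p = 0.0118). WRKYIId-1, a WRKY factor measured on the ZS-5 arrays but not on all 12, went from 0.92 and 1.32 at 2 hr to -0.34 and -0.16 at 6 hr.

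**Figure D2:**
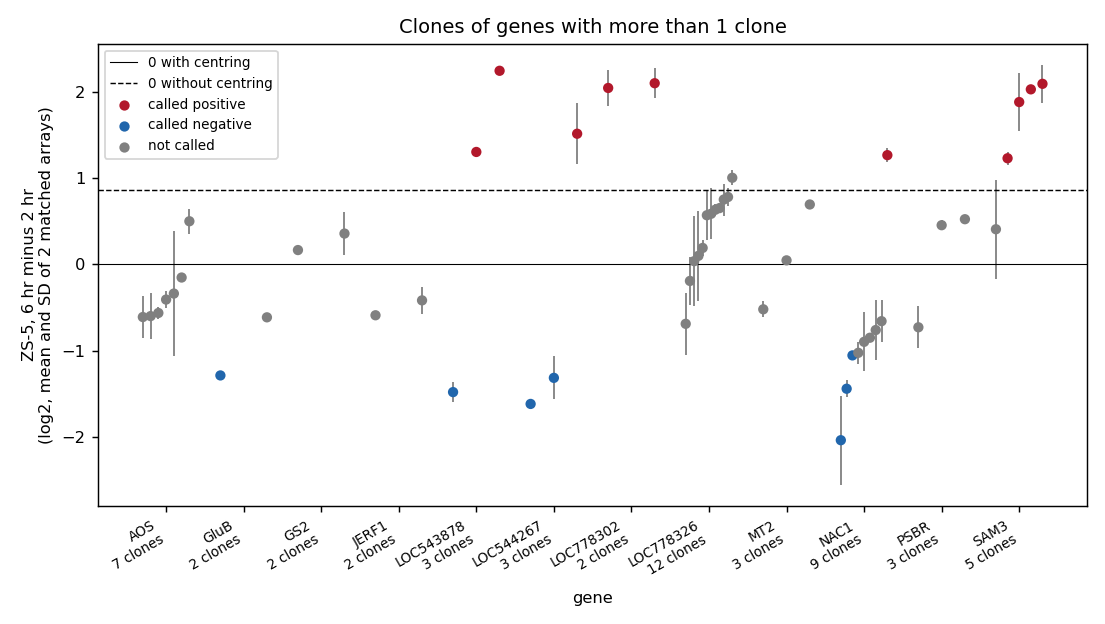
The 6 hr minus 2 hr log2 difference in ZS-5 for each clone of the genes with more than 1 measured clone, as mean and SD of 2 matched array pairs; the solid line is 0 with centring and the dashed line marks 0 without it. Clones of NAC1, LOC543878 and LOC544267 were called on both sides, while the SAM3 clones lie between 0.41 and 2.09.

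Both peroxide-handling genes were called positive in ZS-5 with centring, as were 23.4% of all clones, but TPX2 had the other sign after quantile normalisation (-0.12) and at equal median absolute deviation (-0.029). The catalase gene cat1 had ratios of -0.40 and -0.01 at 2 hr and 1.43 and 1.70 at 6 hr, with a mean difference of 1.77 ± 0.08 (SD, n = 2 matched pairs). At 30 min it had been at -1.96. If the 30 min arrays run the same way, which was not tested, cat1 went from the negative to the positive side over the series of times. TPX2, a peroxidase, had 1.45 and 1.34 at 2 hr and 2.52 and 2.82 at 6 hr, with a mean difference of 1.28 ± 0.29. In LA2711 cat1 differed by 0.53 and TPX2 by 0.22. By limma cat1 passed (1.15 ± 0.38, SE, adjusted p = 0.0426) and TPX2 did not (adjusted p = 0.262). Uncentred differences were 0.91 and 0.42, neither was called in ZS-5, and the adjusted p by limma were 0.475 and 0.992.

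The metallothioneins, small cysteine-rich proteins that bind metals, differed by gene. MT4 stood at -0.06 and -0.26 at 2 hr, close to 0 on both arrays, and at 2.32 and 2.10 at 6 hr. Its difference of 2.37 ± 0.01 (SD, n = 2 matched pairs), or 1.51 uncentred, was the next largest positive value among named clones after GAD2. In LA2711 MT4 differed by 0.64 ± 0.19, and limma over both genotypes gave 1.50 ± 0.42 (SE, adjusted p = 0.0244; 0.188 uncentred). The 3 MT2 clones were not called with centring, and that of spots 8869 to 8871 was called negative without it, at -1.38. They went from -2.58 to -3.10, from -1.54 to -1.49 and from 1.03 to 1.72.

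Of the transport genes, the tonoplast aquaporin gene TIP was called and the potassium channel gene LKT1 was not. TIP had ratios of 0.995 and 1.05 at 2 hr and 2.48 and 2.32 at 6 hr, with a mean difference of 1.38 ± 0.15 (SD, n = 2 matched pairs), and had been at -0.91 at 30 min. LKT1 had 1.92 on both arrays at 2 hr and 2.43 and 2.67 at 6 hr. In LA2711 they differed by 2.39 and 1.06. Both passed by limma with centring (adjusted p = 0.00904 and 0.0483) and neither without it (0.14 and 0.83). Uncentred ZS-5 differences were 0.52 for TIP and -0.23 for LKT1.

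All 3 genes of carbon metabolism were called with centring, 1 positive and 2 negative, against 35.7% of all clones. The sign turned for ADH2 after quantile normalisation (-0.25) and at equal median absolute deviation (-1.24), and for BMY3 in the latter (0.38). PPCK1 kept its sign but fell below 2-fold in the latter (-0.82). ADH2, an alcohol dehydrogenase of fermentation, had ratios of 4.07 and 4.30 at 2 hr and 5.44 and 5.46 at 6 hr, which is further from 0 than any other named clone on the positive side at 6 hr. Its difference was 1.26 ± 0.15 (SD, n = 2 matched pairs) in ZS-5 and -1.66 ± 0.57 in LA2711. PPCK1, the kinase that activates phosphoenolpyruvate carboxylase, had -0.35 and -0.67 at 2 hr and -2.79 and -2.91 at 6 hr, with a mean difference of -2.34 ± 0.14 and of -2.25 in LA2711. BMY3, a starch-degrading beta-amylase, had -2.33 and -2.15, then -3.64 and -3.47, a difference of -1.31 in ZS-5 and -2.24 in LA2711. PPCK1 (-2.29 ± 0.39, SE, adjusted p = 0.00399) and BMY3 (adjusted p = 0.00536) passed by limma, while ADH2 did not (adjusted p = 0.85). Uncentred, BMY3 (-2.17) and PPCK1 (-3.20) stayed called negative, as every negative call with centring must. ADH2 differed by 0.40 in ZS-5 and was not called, and by -2.29 in LA2711.

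Pathogenesis-related genes showed the whole range of courses. LOC543878, which RefSeq also lists as PR5, has 3 clones. LOC543878 (spots 9973 to 9975) had 1.80 and 2.09 at 2 hr and 4.08 and 4.30 at 6 hr, with a mean difference of 2.24 ± 0.05 (SD, n = 2 matched pairs) that was 2.22 in LA2711 and passed by limma (2.23 ± 0.29, SE, adjusted p = 0.00217; 0.00854 uncentred). LOC543878 (spots 7648 to 7650) had 3.26 and 3.01, then 4.56 and 4.31, a difference of 1.30. LOC543878 (spots 6400 to 6402) went the other way, from 1.61 on both arrays to 0.21 and 0.04, by -1.48. The last 2 differed by 0.28 and -0.39 in LA2711 and did not pass by limma (adjusted p = 0.216 and 0.0681).

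The beta-1,3-glucanase gene GluB, whose product breaks down cell wall glucans, moved toward 0. GluB (spots 4516 to 4518) had 3.57 and 3.39 at 2 hr and 2.31 and 2.07 at 6 hr, with a mean difference of -1.29 ± 0.04 (SD, n = 2 matched pairs; limma adjusted p = 0.00654), having stood at 1.49 at 30 min. The other GluB clone went from 4.37 to 3.76. The gene NP24-I, whose product resembles osmotin, went from -1.84 to -2.28. Of the 6 clones of this group, 2 were called positive and 2 negative, with a median of -0.53, and by limma 1 passed on each side. Without centring 1 was called positive and 4 negative, with a median of -1.39, and by limma 1 and 4 passed. Over all clones 23.4% were called positive and 12.2% negative with centring, and 6.99% and 38.9% without it.

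**Figure D3:**
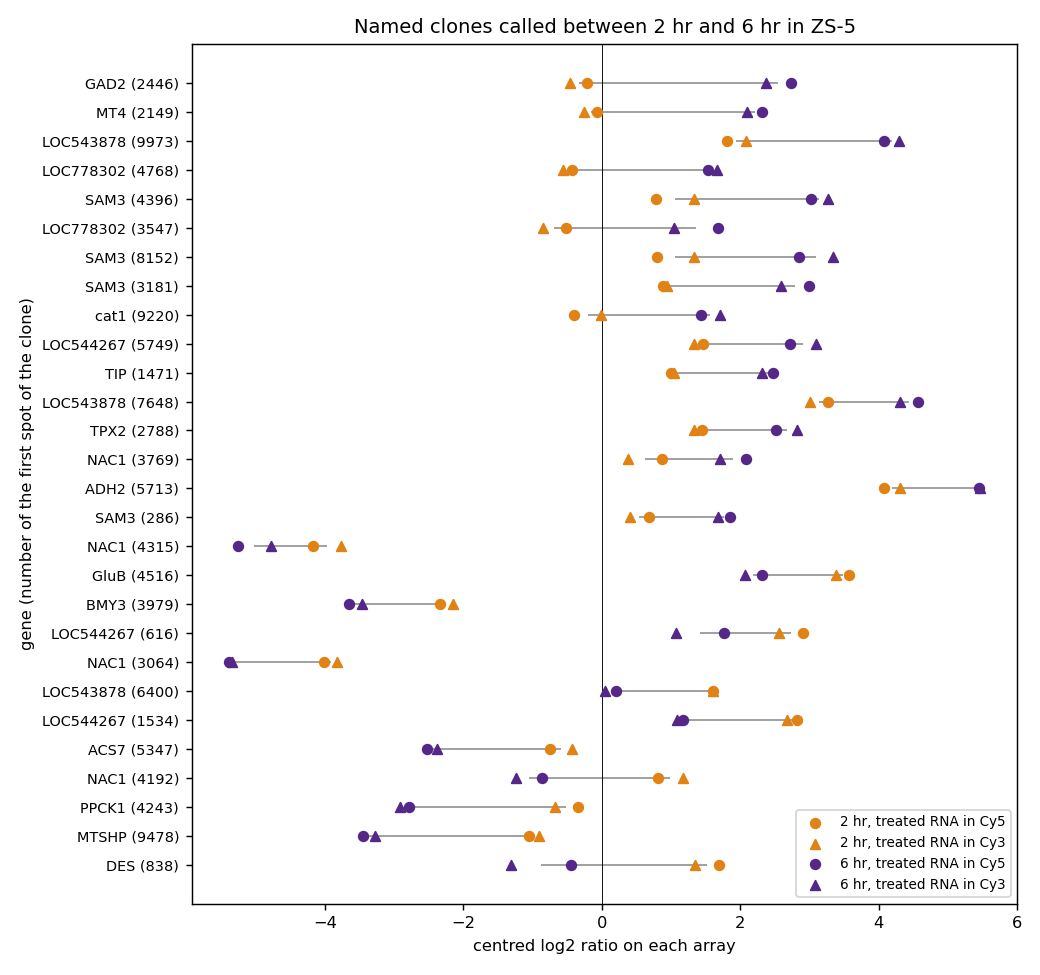
Centred log2 ratio of the 28 called named clones on each of the 4 ZS-5 arrays, with the gene and the number of the clone's first spot on the y axis; circles and triangles are the dye orientations and grey lines join the means of the times. That the 2 hr and 6 hr arrays do not overlap in any clone follows largely from the rule for a call. On both dye pairs 7 clones, among them GAD2, MT4, cat1 and DES, lie on opposite sides of 0 at the 2 times.

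Of the 7 heat shock and plastid clones, MTSHP alone was called with centring, as negative (12.2% of all clones). Without centring 5 were called negative (38.9% of all clones). MTSHP, a mitochondrial small heat shock protein, had -1.05 and -0.90 at 2 hr and -3.46 and -3.28 at 6 hr, with a mean difference of -2.39 ± 0.02 (SD, n = 2 matched pairs) in ZS-5 and -2.25 in LA2711 (limma adjusted p = 0.00244). At equal median absolute deviation its ZS-5 difference was -0.64. Hsp90-1, a cytosolic chaperone, differed by -0.81 ± 0.23 in ZS-5 and by 0.69 in LA2711, and was called negative without centring, at -1.67. Of the 5 clones of plastid genes none was called with centring: PSBR, a subunit of photosystem II, differed by -0.73, 0.45 and 0.52, the phytoene synthase gene PSY2 by -0.78, and ribA, of riboflavin synthesis, by -0.58. Without centring the lowest PSBR clone (-1.59), PSY2 (-1.63) and ribA (-1.44) were called negative. PSBR is also the marker of green tissue on this array. The ratios give no level of it, so the share of green tissue in the root RNA was not tested. By limma the lowest PSBR clone (adjusted p = 0.0406) and PSY2 (0.0208) passed on the negative side with centring, as did 19.2% of all clones. At equal median absolute deviation the ZS-5 differences of this PSBR clone (1.59), PSY2 (0.70) and ribA (1.39) were positive. After quantile normalisation the PSBR clone stayed negative (-0.41), while PSY2 (0.09) and ribA (0.05) turned.

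Genes known here only by their number followed different courses. LOC778326 has 12 clones, all far on the positive side at both times, with ratios of 2.10 to 4.14 at 2 hr and 1.41 to 4.92 at 6 hr. Their differences ran from -0.69 to 1.002 and none was called with centring, against 35.7% of all clones. Uncentred they ran from -1.55 to 0.14, and 1 was called negative (38.9% of all clones). At equal median absolute deviation they ran from -1.52 to -1.01. By limma 3 of the 12 passed on the positive side with centring and 0 without it (24.1% and 9.48% of all clones). Both clones of LOC778302 followed the course of GAD2: that of spots 4768 to 4770 began at 2.49 and 2.17 at 30 min. Its ratios were -0.44 and -0.55 at 2 hr, then 1.54 and 1.67, a difference of 2.10 ± 0.17 (SD, n = 2 matched pairs), and that of spots 3547 to 3549 differed by 2.04. In LA2711 the differences were 1.82 and 2.08, and both passed by limma (adjusted p = 0.00255 for spots 4768 to 4770 and 0.0031 for the other clone).

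LOC544267 was called on both sides. The clone of spots 1534 to 1536 had 2.81 and 2.68 at 2 hr and 1.17 and 1.09 at 6 hr, with a mean difference of -1.62 ± 0.04 (SD, n = 2 matched pairs), and that of spots 616 to 618 differed by -1.32. The clone of spots 5749 to 5751 went from 1.46 and 1.34 to 2.73 and 3.10, by 1.51 ± 0.36. Without centring the 2 negative calls remained, as they must, and the third clone, at 0.65, was not called. In LA2711 the 3 differences were -0.20, -0.46 and 0.92. LOC543942 was the lowest named clone at 2 hr, at -5.16, and differed by -0.43. LOC543916, which RefSeq also lists as the xyloglucan endotransglucosylase gene XTH9, stood at 1.20 and 1.31 after 2.98 at 30 min, and TCTP, a translationally controlled tumour protein homologue, at 0.30 and 0.44. LOC778219, not measured on all 12 arrays, differed by -0.98 ± 0.81.

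If the 30 min arrays run the same way, which was not tested, few clones turned back between 2 hr and 6 hr. Between 30 min and 2 hr and again between 2 hr and 6 hr, 176 of the 3018 clones moved by 2-fold to the positive side and 206 to the negative side. Without centring these counts were 60 and 537. A 2-fold move down and then up was found in 25 clones, among them GAD2 and both LOC778302 clones, and a move up and then down in 17, among them GluB (spots 4516 to 4518) and LOC544267 (spots 1534 to 1536). Uncentred, the numbers of these turning clones were 9 and 66, and the LOC778302 clone of spots 3547 to 3549 was no longer among them. GluB (spots 9247 to 9249) and AOS (spots 10144 to 10146) then joined the clones moving up and then down. With centring 652 clones moved only between 2 hr and 6 hr and 757 only between 30 min and 2 hr, against 712 and 514 without it.

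**Figure D4:**
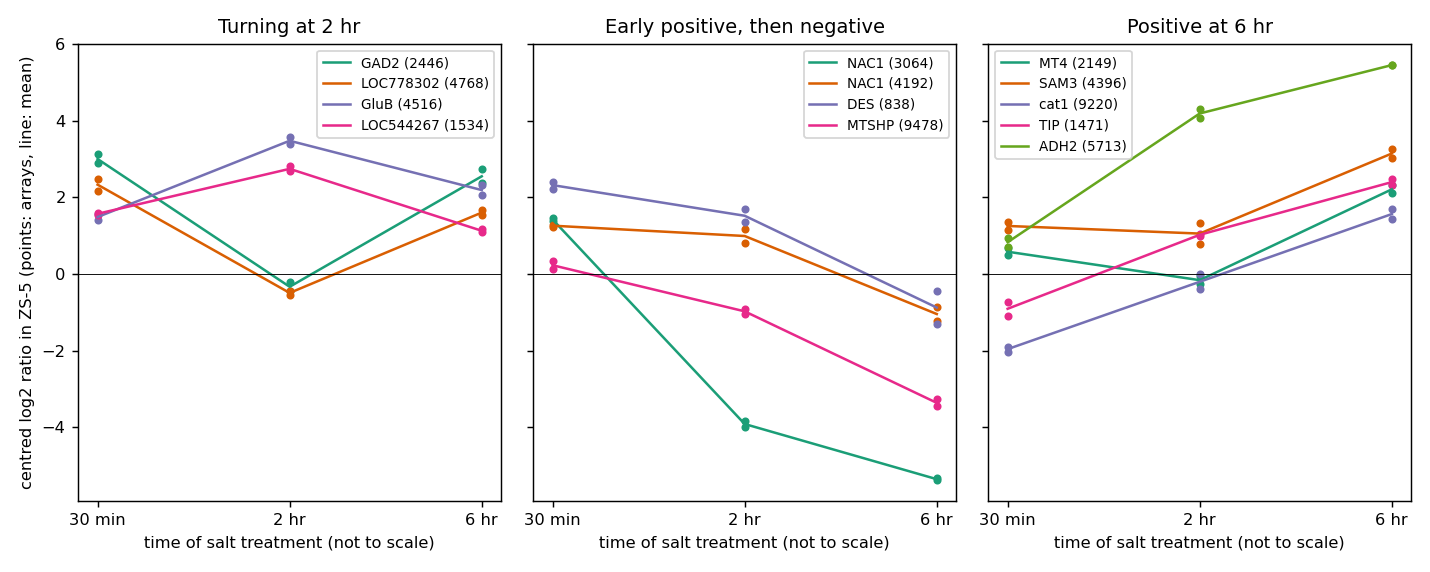
Centred log2 ratios of chosen named clones over the 3 times of ZS-5, with points for the 2 arrays of a time and lines through their means. GAD2 and LOC778302 are near 0 or below at 2 hr and positive before and after, DES and NAC1 (spots 4192 to 4194) pass from the positive to the negative side, and MT4 stands at 2.21 at 6 hr.

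The largest differences belonged to clones that are unnamed here. The clones of spots 6997 to 6999, 6673 to 6675 and 9577 to 9579 differed by 5.88 ± 0.28, 5.87 ± 0.08 and 5.43 ± 0.37 (SD, n = 2 matched pairs). At 2 hr all 3 were on the negative side, between -1.25 and -0.58 on single arrays, and at 6 hr between 4.58 and 5.09. In LA2711 they differed by 6.92, 6.85 and 7.18. On the negative side the clones of spots 6931 to 6933, 8506 to 8508 and 8521 to 8523 differed by -4.26 ± 0.02, -3.82 ± 0.01 and -3.64 ± 1.07. The first of these crossed from 1.65 and 2.08 to -2.63 and -2.17. All 6 passed by limma over both genotypes, with adjusted p from 0.000146 to 0.00533. That fit contains the ZS-5 arrays by which they were picked.

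Set beside LA2711, most of what was called in ZS-5 was called there too. LA2711 had 1152 called clones (38.2%), 568 positive (18.8%) and 584 negative (19.4%). Called on the same side in both genotypes were 755 clones, which is 70.2% of the ZS-5 calls and 65.5% of the LA2711 calls, and 8 were called on opposite sides. Uncentred, LA2711 had 1343 (44.5%), 290 positive (9.61%) and 1053 negative (34.9%), and 979 were shared, or 70.7% and 72.9%. The differences of the genotypes correlated with r = 0.81 across the 3018 clones, which are not independent. ZS-5 and LA2711 have 1 replicate each per time, so no gap between them was tested. Among named clones, the gap was widest for ADH2, at 2.93, against a median absolute gap of 0.45 over all clones, and 11 of the 3018 clones had a wider one. MT4 (2.37 against 0.64), cat1 (1.77 against 0.53), and LOC544267 (spots 1534 to 1536, -1.62 against -0.20) were called in ZS-5 and not in LA2711. The 7 strongly negative NAC1 clones, both GS2 clones and TIP differed more in LA2711.

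**Figure D5:**
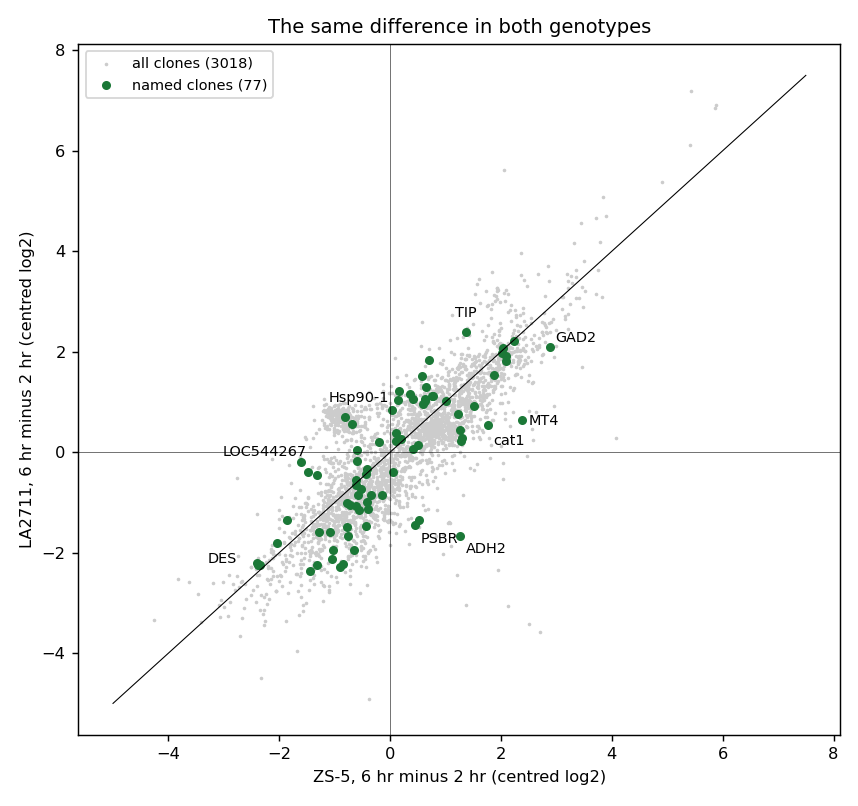
The 6 hr minus 2 hr log2 difference of each clone in ZS-5 (x axis) and LA2711 (y axis), as means of 2 matched array pairs, with the 77 named clones in green and the diagonal marking equal differences. Most clones lie near the diagonal, while ADH2 and 2 PSBR clones lie below it on opposite sides of 0 in the 2 genotypes.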

How the data were processed

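Root RNA of salt-treated and control tomato seedlings was compared on 12 arrays in 2 colours, and the 4 arrays of ZS-5 at 2 hr and 6 hr are described here beside the 4 of LA2711. The deposited values are log2 ratios per spot, per the file headers. For background correction and within-array normalisation the sources used here give no method, and files with spot intensities were not used here, so signal over background is unknown. Of 10368 spots, those at a ratio limit (an absolute log2 ratio of 9.965 or more, 152 on the 4 arrays) were left out, and each run of 3 adjacent spots was averaged to 1 of 3456 clones. Between 9695 and 9820 spots remained on each of the 4 arrays. Each array was centred on the median of the 3018 clones measured on all 12 arrays, and everything was repeated without centring. A dye-swap pair was averaged to 1 replicate. Differences were tested only over both genotypes, with limma 3.58.1 in R 4.3.3 on the 6 condition means (genotype and time as factors, 2-sided, Benjamini-Hochberg adjustment over 3018 clones, called under 0.05), after a check of the code on simulated data. The labels do not say whether conditions come from separate plants, so p-values measure the spread between these samples. The number of arrays limits the precision.

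Clones were named from the platform annotation and looked up by gene ID in RefSeq's gene table. In full were described, on each side, up to 12 genes with the largest ZS-5 difference among called clones, genes with a clone that changed sides past 2-fold, and the 3 largest unnamed clones a side. The members and gene lists were chosen with earlier results of these data known. Repeat number 1 marks treated RNA in Cy5 in every condition except ZS-5 at 30 min, where it marks Cy3, and same-numbered ZS-5 arrays of the 2 times deviated together (r = 0.78 across clones). Alternatives were other scalings, spot rules, filters, thresholds, pairings and left-out arrays. Genome positions and sequences were not used here.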

Additional observations from a re-analysis of the deposited data

Results flagged for a closer look

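Clones were marked where both dye-matched 6 hr minus 2 hr differences went one way in ZS-5 and both the other way in LA2711. Each genotype has 1 replicate per time, so these differences between genotypes were not tested. ADH2 differed by 1.26 in ZS-5 and -1.66 in LA2711, a gap of 2.93. The PSBR clone of spots 2320 to 2322 differed by 0.45 and -1.45, a gap of 1.90, and that of spots 3649 to 3651 by 0.52 and -1.34, a gap of 1.87. MT2 (spots 9751 to 9753) differed by 0.05 and -0.39, a gap of 0.43. The gap was negative for Hsp90-1, at -1.50 (-0.81 against 0.69), and for LOC778326 (spots 10252 to 10254), at -1.25 (-0.69 against 0.56).

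Without centring only ADH2 (0.40 against -2.29) and Hsp90-1 (-1.67 against 0.07) among these named clones had means on opposite sides. The PSBR clones were then at -0.41 against -2.07 and -0.34 against -1.97, MT2 at -0.81 against -1.01 and LOC778326 at -1.55 against -0.06.

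Some unnamed clones, picked for their gap after the values were seen, stood further apart. The clone of spots 5557 to 5559 differed by 2.71 in ZS-5 and -3.59 in LA2711, a gap of 6.30. The gaps of the clones of spots 4795 to 4797 and 3928 to 3930 were 5.92 and 5.20. In the other direction the clone of spots 4114 to 4116 had a gap of -2.31 and that of spots 6079 to 6081 one of -2.25. These 5 lay on opposite sides with and without centring.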

How the results depend on the processing

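The counts moved with the scaling of the arrays and with the threshold, and the cause was not tested. Against 1076 ZS-5 calls (707 positive, 369 negative), no centring left 211 positive and 1173 negative, quantile normalisation 271 (132 and 139), scaling to equal median absolute deviation 434 (328 and 106) and a 4-fold threshold 249 (183 and 66). The last 3 settings remove spread or ask for more of it by construction. Crossed dye pairing, the median of spots, full spot coverage, kept limit values and all clones on the 4 ZS-5 arrays stayed within 1.5 times, from 895 to 1118. Without replicate 1 or 2 the calls were 1245 to 1327 in all, 790 to 809 positive and 436 to 537 negative. With alternatives chosen after seeing the data, the called clones were 1141 further from 0, 33 nearer and 210 on the other side uncentred, and 18, 374 and 42 at equal median absolute deviation.

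Over both genotypes limma called 1308 (728 positive, 580 negative). Uncentred the sides were 286 and 1129. After quantile normalisation and at equal median absolute deviation limma called 0, 0 positive and 0 negative, with 356 and 322 clones at an unadjusted p under 0.05. The fit of 12 arrays as samples with the replicate number as a block called 2188 (1215 positive, 973 negative), against 2119 without the block. Repeat number and treated dye run the same way in every condition except ZS-5 at 30 min, so the block is not purely the dye. The fit counts dye-swapped arrays as separate samples, and so is no paired test of plants. Leaving out a replicate number gave 1063 to 1297 calls, 633 to 714 positive and 430 to 583 negative.

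Among called named clones, 6 differences had the other sign at equal median absolute deviation: NAC1 (spots 3064 to 3066) 1.04, NAC1 (spots 4315 to 4317) 1.24, BMY3 0.38, ADH2 -1.24, TPX2 -0.029 and LOC543878 (spots 7648 to 7650) -0.77. Quantile normalisation turned ADH2 (-0.25) and TPX2 (-0.12). No called named clone turned under the other settings run. Some kept their sign but fell below 2-fold at equal median absolute deviation, among them MTSHP (-0.64), PPCK1 (-0.82) and ACS7 (-0.57). Others, such as DES (-1.72) and GluB (spots 4516 to 4518, -2.07), stayed past 2-fold on average. Named clones not called with centring also turned at equal median absolute deviation in some cases. Among them were ERF3 (0.76), AADC1B (1.34), AAP2 (0.58), PSY2 (0.70) and ribA (1.39).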

Other observations

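In the plot of ZS-5 against LA2711 differences, a dense group of clones stood off the diagonal. It was noticed in the data and bounded afterwards by ZS-5 differences between -1.4 and -0.5 and LA2711 differences between 0.4 and 1.2, so it has no test. Within these bounds lay 203 clones, 201 of them unnamed here, and the named ones are Hsp90-1 and LOC778326 (spots 10252 to 10254). Their positions ran from spot 82 to spot 10279 of the array. The median ZS-5 ratio was -0.86 at 30 min, -0.12 at 2 hr (quartiles -0.65 and 0.08) and -1.09 at 6 hr (quartiles -1.43 and -0.85). In LA2711 the median ratio was -1.16 at 2 hr and -0.45 at 6 hr. Without centring the median difference was -1.74 in ZS-5 and 0.06 in LA2711. Whether these clones carry the same transcript was not tested.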
